A study of Mus musculus with 3 samples.

Results

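The collagen gene family was described across the cell classes of brainstem with and without a diffuse midline glioma graft. Its members were all rows of the deposited tables whose gene symbol has the form Col, a number, a and a number, which gave 44 genes of 32285 features. All 44 had at least 1 UMI (unique molecular identifier, the tag that marks 1 captured RNA molecule) in each library. At least 20 UMIs were counted for 40 members in tumour 1, 40 in tumour 2 and 34 in the normal library, and 3 members stayed under 20 UMIs everywhere. The tumour group is 2 untreated B6(Cg)-Tyrc-2J/J mice injected with 100000 cells of DIPG4423, a murine diffuse midline glioma line, at the age of 6 weeks, with brainstem taken 3 weeks later. The normal group is 1 untreated brainstem without tumour, of the same model per the series' design text. The normal mouse's age, any sham injection and the alleles that the line carries are not given in the sources used here. The graft is 1 line, so the tumour values hold for that line alone, and no label marks which cells were injected.

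Collagens are secreted or membrane-bound proteins in which 3 chains wind into a triple helix, and each gene codes for 1 chain. Fibrillar collagens build tensile fibrils, fibril-associated collagens decorate those fibrils, type IV collagens form the sheet of basement membranes around vessels, and beaded-filament, multiplexin, short-chain and transmembrane collagens form other assemblies. Normal brain parenchyma holds little fibrillar collagen, most of which lies in the meninges and around vessels. Within the brain, vessels and their mural cells are known as the main makers of basement membrane collagen.

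The upstream sequences of 3 chains of types IX and XI are shown because these collagen types had the highest levels in the glioma-like cells described below. Each is the 250 bases before the gene's start in RefSeq's table (GRCm38.p6, plus strand), which held 35 of the 44 members. Col9a3, whose level in those cells was above that of Col11a2, was not among them. Capitals mark matches, on either strand, to the TATA box, searched as TATAAA. They also mark the CCAAT box, searched by its 5 letters as named, and the GC box, searched as GGGCGG. No matches overlapped in the 3 windows.
Col9a1, chr1:24177360-24177609 (the first of its starts): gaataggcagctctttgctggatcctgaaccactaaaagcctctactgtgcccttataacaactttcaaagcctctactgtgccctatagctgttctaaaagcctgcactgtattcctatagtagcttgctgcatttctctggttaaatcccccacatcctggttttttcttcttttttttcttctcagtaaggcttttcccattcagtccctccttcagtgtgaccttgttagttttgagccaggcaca
Col11a1, chr3:114030290-114030539: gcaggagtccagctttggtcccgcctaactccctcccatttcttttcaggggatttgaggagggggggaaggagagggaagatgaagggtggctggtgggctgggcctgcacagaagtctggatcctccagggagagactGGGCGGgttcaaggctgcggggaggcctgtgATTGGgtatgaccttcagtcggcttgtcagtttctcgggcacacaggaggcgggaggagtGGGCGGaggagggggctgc
Col11a2, chr17:34038888-34039137: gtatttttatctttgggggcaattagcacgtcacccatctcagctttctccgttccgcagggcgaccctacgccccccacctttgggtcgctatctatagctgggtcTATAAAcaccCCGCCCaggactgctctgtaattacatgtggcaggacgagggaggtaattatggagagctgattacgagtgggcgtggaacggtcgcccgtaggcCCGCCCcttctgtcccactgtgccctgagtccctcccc
The Col9a1 window shown held none of the motifs, while the other of this gene's 2 windows held a CCAAT box. The Col11a1 window held 1 CCAAT box and 2 GC boxes, and the Col11a2 window 1 TATA box and 2 GC boxes. The TATA box occurred in 5 of the 38 windows of the members (13.2%) and in 12.4% of all 32851 windows. The CCAAT box occurred in 13 of 38 (34.2%) against 33.8%, and the GC box in 22 of 38 (57.9%) against 32.7%. These shares were not adjusted for base composition. The median share of G and C over all windows was 52.4%, and the windows shown had 43.6% (Col9a1), 62.4% (Col11a1) and 57.6% (Col11a2). A match is a description of letters, not a shown binding site. The genes themselves span chr1:24177610-24252684 (Col9a1), chr3:114030540-114220718 (Col11a1) and chr17:34039437-34066685 (Col11a2) in the GENCODE annotation of GRCm38. For Col11a2 that start lies downstream of the RefSeq start used. The bases just after the RefSeq start were in no GENCODE transcript of Col11a2, unlike those of the other 2 genes. In the same annotation Col4a1 (chr8:11198423-11312826) and Col4a2 (chr8:11312805-11449287) lie head to head with 21 bases between their starts, and Col4a4 and Col4a3 on chromosome 1 with 72 bases between theirs.

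After filtering, 10550, 9407 and 3083 cells remained in tumour 1, tumour 2 and the normal library, with medians of 8783.5, 11297 and 2395 UMIs. The libraries share 13 to 37 cell barcodes pairwise. Cells were grouped without using any collagen gene and named from marker genes, none of them a collagen, so classes are called endothelial-like and so on. The glial progenitor-like class (4362, 2096 and 1 cells) carries the oligodendrocyte progenitor markers that such gliomas are known to share, and which of its cells were injected was not tested. Levels are CPM (counts-per-million), that is a gene's UMIs relative to all UMIs of the cells named. Each transcript is counted at its 3′ end once, so no length scaling applies, but capture may differ between genes. Neutrophil-, B-, T or NK- and erythroid-like cells, which are not known as collagen makers, were taken as background, since droplets can catch free RNA. Depth differs between classes, and levels set against this background were not adjusted for it. Over these 4 classes together, Col11a1 stood at 98.3 and 64.5 in the tumours and 5.76 in the normal library, and Col4a1 at 25.6, 53.4 and 2.06.

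Collagen RNA came from different cells in the tumours and the normal library. Tumour 1 had 287518 collagen UMIs (20.5 per 10000 UMIs), tumour 2 had 312245 (21.4 per 10000) and the normal library 25067 (22.6 per 10000), of which a pair of cells described below held 71.5%. Without that pair the normal library had 6.47 per 10000. Glial progenitor-like cells held 82.6% of the collagen UMIs of tumour 1 and 69.8% of those of tumour 2, against 0.0160% in the normal library, where 1 cell fell in that class. Mural-like cells held 8.75%, 10.9% and 40.3%, and endothelial-like cells 4.76%, 14.3% and 4.20%. Fibroblast-like cells held 0.0560% and 0.299% in the tumours and 36.2% in the normal library. Neuron-like cells held 0.371% and 0.457% in the tumours and 14.0% in the normal library. Among the members with at least 20 UMIs, glial progenitor-like cells held more UMIs than any other class for 28 of 40 in tumour 1 and 21 of 40 in tumour 2, while in the normal library neuron-like cells did so for 17 of 34 and fibroblast-like cells for 10. Without the pair, neuron-like cells held 49.3% of the normal library's collagen UMIs, fibroblast-like cells 16.9%, endothelial-like cells 14.7%, microglia-like cells 7.32% and mural-like cells 0.561%. These shares combine cell numbers and levels per cell.

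**Figure D1:**
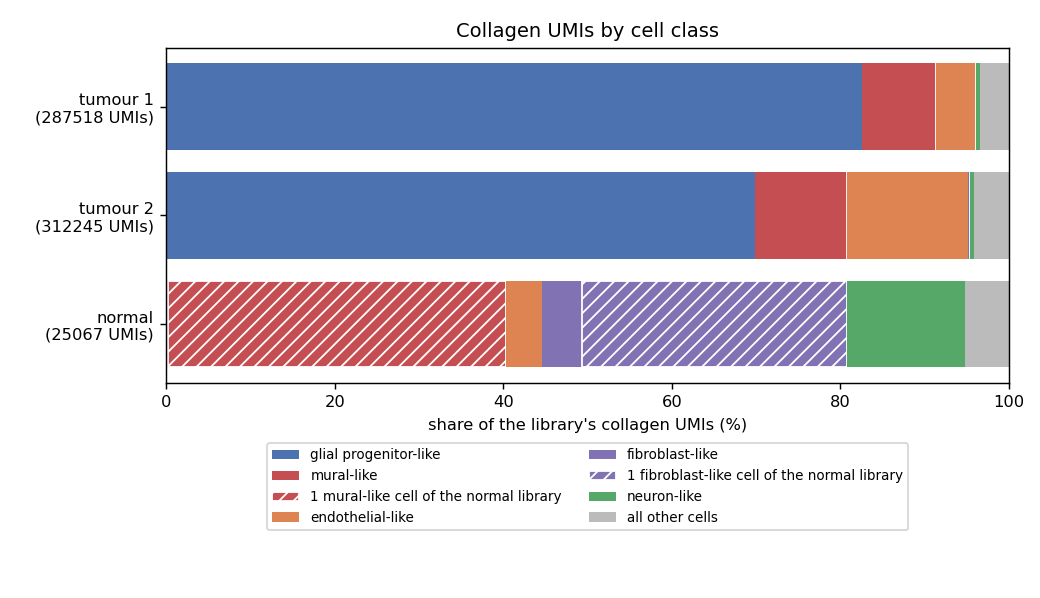
Share of each library's collagen UMIs (x axis, percent) held by each cell class; each bar is 1 library and hatched segments are single cells. Glial progenitor-like cells fill 82.6% and 69.8% of the tumour bars, while 2 cells fill 71.5% of the normal bar.

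A pair of cells carried most collagen RNA of the normal library. They held 40.2% and 31.4% of its collagen UMIs, 71.5% together, and collagen made up 42.1% and 34% of their own UMIs. No other cell of any library passed 10%, the highest being 5.17% in tumour 1, 4.78% in tumour 2 and 5.39% for the next cell of the normal library. The first, placed in the mural-like class, had 4900 UMIs of Col1a1 and 4835 of Col1a2, the chains of type I collagen, the main fibril of bone, skin and tendon. It had no Col3a1, but 113 UMIs of Col11a1 and 49 of Col11a2. It also had UMIs of 9 of 10 bone-forming cell markers, led by Bglap with 770, and none of the mural markers Pdgfrb, Rgs5 or Acta2. The second, placed in the fibroblast-like class, had 3136 UMIs of Col3a1, the chain of type III collagen of soft tissue and vessel walls, 2414 of Col1a2 and 1819 of Col1a1, with 559 UMIs of the fibroblast marker Dcn. With the stricter cell filter, whose limits both cells pass, the first was removed as a predicted doublet, and with doublets kept it fell in an unnamed cluster. The second stayed in the fibroblast-like class under both. Without both cells the normal library had 7134 collagen UMIs, and fibrillar chains made up 42.0% of its collagen UMIs in place of 82.3%, against 46.7% and 45.6% in the tumours. In the tumours 50% of the collagen UMIs were spread over 835 and 400 cells.

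In glial progenitor-like cells of both tumours type XI and type IX chains had the highest levels, led by Col11a1, Col9a1 and Col9a3. Nearly every such cell had collagen RNA: with each cell thinned to 1000 UMIs, 88% and 93.8% still had a collagen UMI, against 24.3% and 22.9% of neutrophil-like cells. Before thinning the shares were 99.9% and 100% against 42.1% and 54.8%, at median depths of 15896.5 and 21871 UMIs against 2107 and 2604, and thinning left out 8, 2, 17 and 10 cells as too shallow. Summed collagen stood at 23.9 and 33.2 per 10000 UMIs.

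Among the fibrillar chains, type XI led. Col11a1, whose protein helps to nucleate thin fibrils in cartilage, stood at 1061 CPM in tumour 1 and 1612 in tumour 2, and its partner Col11a2 at 124 and 184. Col2a1, the main fibril chain of cartilage, stood at only 1.68 and 8.03. Col5a1, a chain of type V collagen that limits fibril width, stood at 16.1 and 18.0. Type I and III chains, in contrast, stood at 0.362 to 1.37, near or below the background level in both tumours. The ratio of Col11a1 to Col11a2 UMIs was 8.55 (95% interval 8.39 to 8.71) in tumour 1 and 8.76 (8.60 to 8.93) in tumour 2. Intervals here and below are exact and cover counting error only.

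Type IX collagen, which coats cartilage fibrils, was the second large part. Col9a1 stood at 342 and 460.5 CPM and Col9a3 at 333 and 425, while Col9a2 reached 18.6 and 23.4. The 3 chains kept nearly the same proportions in both tumours. Col9a1 to Col9a3 was 1.03 (1.01 to 1.04) and 1.08 (1.06 to 1.10), and Col9a2 to Col9a3 was 0.0557 (0.0532 to 0.0584) and 0.0550 (0.0522 to 0.0579). In neuron-like cells of the normal library Col9a2 instead had 4.75 times (2.52 to 9.73) the UMIs of Col9a3. The other fibril-associated chains with a level above 20 were Col16a1 at 103 and 119 and Col19a1, known from synapse formation, at 27.2 and 27.5.

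Basement membrane chains were also present in the glial progenitor-like class. Col18a1, the heparan sulfate-bearing collagen from which endostatin is cut, stood at 101 and 93.4, above the background level of 13.7 and 10.3. Col4a1 stood at 96.6 and 118, but its partner Col4a2 at only 24.4 and 36.1, so that Col4a1 to Col4a2 was 3.96 (3.79 to 4.14) and 3.27 (3.12 to 3.43). In endothelial-like cells that ratio was 1.79, 1.87 and 1.43 in the 3 libraries and in mural-like cells 2.05 and 2.20. Other chain pairs were also skewed. Col5a1 outnumbered Col5a2 by 51.7 (36.3 to 76.4) and 19.4 (15.0 to 25.5) to 1, where mural-like cells had 0.241 and 0.261. Col6a3 to Col6a1, chains of the beaded filament around cells, was 0.0515 and 0.0662 against 2.02 and 2.95 in mural-like cells. Col4a3 to Col4a4, chains best known from the kidney, was 0.0503 and 0.0785, whereas endothelial-like cells of tumour 2 had 9.0 (5.06 to 17.4). Capture of 3′ ends can differ between genes, so these ratios are set side by side between classes and are not chain proportions in protein.

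The class held 5 clusters, among which some members differed far more than others. The clusters were led by Pllp and Pou3f1 (2401 and 878 cells), Prss35 and Vegfa (823 and 524), Dtl and Cenpm (304 and 130), Cenpf and Prc1 (731 and 444), and Papss2 and Serpina3n (103 and 120). Col11a1 ranged from 879 to 1116 over the clusters in tumour 1 and from 1398 to 2288 in tumour 2. Col9a1 ranged from 256 to 375 and from 392 to 506. In the cluster led by Papss2 and Serpina3n, Col6a1 stood at 163 in tumour 1 and 655 in tumour 2, where the other 4 clusters had 29.9 to 43.8 and 11.4 to 29.4. Col6a2 in that cluster stood at 37.0 and 312, against at most 9.34 and 9.47 elsewhere. Col27a1, a short fibrillar chain known from growth plate cartilage, stood there at 27.4 and 168, and Col20a1, a fibril-associated chain, at 26.6 and 54.7. The cartilage fibril chain Col2a1 stood at 88.8 there in tumour 2, but at 2.59 in tumour 1, where another cluster had 5.12.

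Between the tumours, the cluster led by Papss2 differed more than the others. Its median ratio of tumour 2 to tumour 1 over 21 members with at least 20 UMIs in both was 2.32, and 14 of the 21 were over 2-fold. The other clusters had medians of 1.06 to 1.22 with 0 to 2 members over 2-fold higher in tumour 2. Col6a1 was over 2-fold lower in tumour 2 in the clusters led by Prss35 (ratio 0.351) and by Dtl (0.353). Of 19 members with at least 20 UMIs in every cluster and tumour, 10 in tumour 1 and 16 in tumour 2 were highest in the cluster led by Papss2, and 11 were highest in the same cluster in both tumours. With 1 value per tumour and no normal counterpart, none of these differences was tested.

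**Figure D2:**
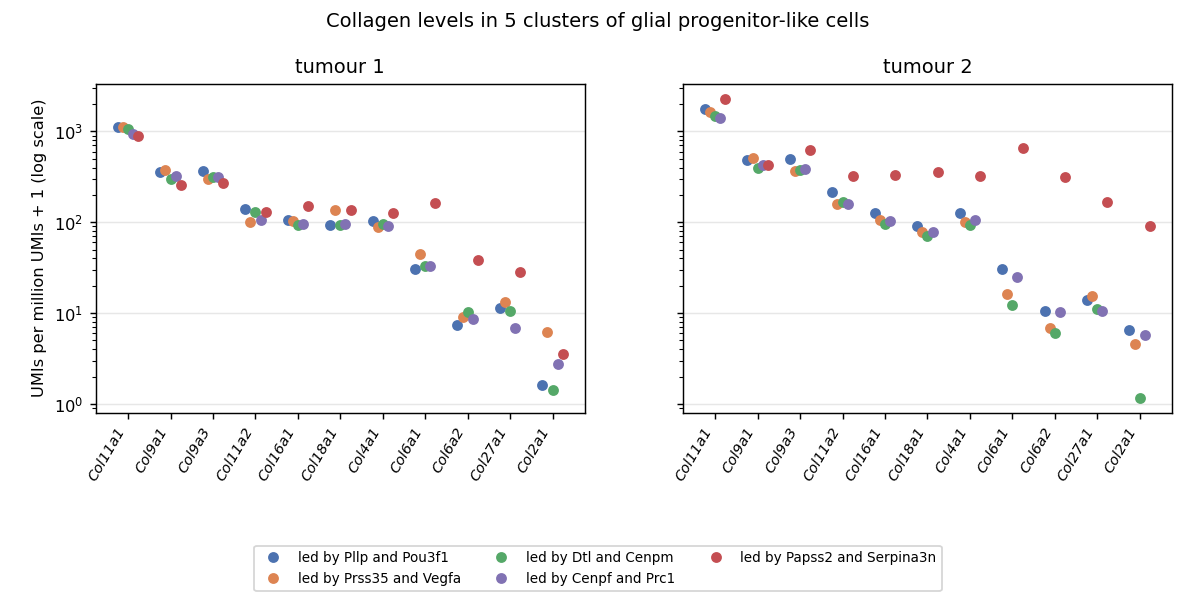
Levels of 11 collagen genes (y axis, CPM plus 1, log scale) in 5 clusters of glial progenitor-like cells, 1 panel per tumour and 1 point per cluster. The points of the cluster led by Papss2 and Serpina3n stand above the others for Col6a1, Col6a2 and Col27a1 in both tumours.

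In endothelial-like cells (72, 220 and 145 cells) collagens were higher in the tumours, with the basement membrane chains at the highest levels. Of 28 members tested, 17 were higher and 0 lower (edgeR's quasi-likelihood test on summed counts, Benjamini-Hochberg threshold 0.05), against 16.5% of all 11384 genes called higher and 10.9% called lower. DESeq2 called 14 of 23 higher and 0 lower, against 1261 genes higher and 628 lower of 10269. By edgeR 18 of the 28 had an unadjusted p under 0.05, against 4806 of 11384 genes. The median log2 change of the 28 members was 3.30, or 2.70 with the 5 members at 0 in the normal library set to their bound, and that of all genes 0.06. The normal group is 1 library, so the only replicate spread behind the p-values is that between the tumours. For each gene edgeR draws that spread toward a spread pooled over genes. The smallest p an exact permutation of the 3 libraries could reach is 1 in 3. How far the tumours' spread stands for that between animals is not given in the sources used here.

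Col4a1, the main basement membrane chain, stood at 4412 and 3089 CPM in the tumours and 537 in the normal library. Col4a2, its partner in the same triple helix, stood at 2467, 1656 and 375. Both tumours lay far above the normal library for both chains. The log2 change was 3.07 ± 0.32 (SE, adjusted p = 0.00364) for Col4a1 and 2.73 ± 0.34 (adjusted p = 0.00476) for Col4a2, by edgeR's quasi-likelihood test.

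The multiplexins of vessel basement membranes moved with them. Col18a1 stood at 274, 119 and 5.34 (log2 change 5.43 ± 0.87, edgeR adjusted p = 0.00907), and Col15a1 at 123, 53.3 and 1.07, the last from 1 UMI. For Col15a1 the ratio to the normal library was 115 (20.5 to 4578) in tumour 1 and 49.9 (8.91 to 1977) in tumour 2. Without tumour 1 the log2 change of Col18a1 was 4.73 and that of Col15a1 5.85. The groups did not overlap for either gene.

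Fibrillar chains were higher too, at lower levels. Col5a2, a type V chain, stood at 142, 119.7 and 16 (log2 change 3.28 ± 0.34, edgeR adjusted p = 0.00353), and Col5a3 at 84.2, 60.4 and 8.54 (3.31 ± 0.47). Col1a1 stood at 101, 79.3 and 3.20, with ratios of 31.7 (10.6 to 155) and 24.8 (8.44 to 120.4). Col3a1 stood at 228, 87.3 and 28.8, and its log2 change of 2.68 ± 0.72 fell to 1.85 without tumour 1. Col5a1 had no UMI in the normal library and was at least 12.5-fold higher in tumour 1 and at least 7.48-fold higher in tumour 2 against a floor of 3 counts per library. The partner chain Col1a2 stood at 59.3, 25.6 and 43.7, so the normal library lay between the tumours.

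Further chains called higher were Col6a3 of the beaded filament at 223, 121 and 1.07 (ratios 209 and 113 against 1 UMI), Col7a1, known from the anchoring fibrils of skin, at 180.4, 106 and 4.27 (log2 change 5.29 ± 0.66), and Col8a1, a short-chain collagen of vessel walls, at 63.1, 42.4 and 3.20. For these 12 genes the level in both tumours was above that of the background classes. The other 5 called members, Col9a1, Col9a3, Col11a1, Col11a2 and Col16a1, were not above it in both tumours. These 5 stood at 68.9 and 78.3 for Col11a1 and at 8.15 to 17.9 for the rest, with 0 to 3 UMIs in the normal library.

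The endothelial-like class held different clusters in tumour and normal brainstem. A cluster led by Ctla2a held 61 and 174 cells in the tumours and 4 in the normal library, and a cluster led by Slco1a4, a transporter of the blood-brain barrier, held 11, 46 and 141. Col4a1 stood at 4851 and 3379 in the first cluster in the tumours, and at 346, 518 and 537 in the second cluster in tumour 1, tumour 2 and the normal library. Col4a2 likewise stood at 2708 and 1813 in the first, and at 235, 267 and 374 in the second. Within the cluster led by Slco1a4 alone, the tumours thus did not lie above the normal library for either chain, with log2 changes of -0.22 and -0.51. There 1 of 13 members was called higher, Col1a1 at 0, 39.5 and 3.20 (log2 change 3.16), against 4.97% of 9437 genes. All 31 UMIs of Col1a1 in tumour 2 lay in 1 of its 46 cells. Without the cluster led by Ctla2a, the higher level of type IV chains in the tumours was thus not seen.

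Other cells' markers differed beside these changes. The 10 fibroblast markers, 9 of which had UMIs in every library, summed to 1526, 1017 and 348 CPM in the endothelial-like class. The 10 mural markers, with 9 or 10 detected, summed to 2234, 2655 and 5939, and the 9 glial progenitor markers, with 8, 9 and 5 detected, to 538, 452 and 131. The endothelial list itself, all 10 detected, summed to 7866, 7079 and 16255. The part of each in the collagen changes was not tested.

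**Figure D3:**
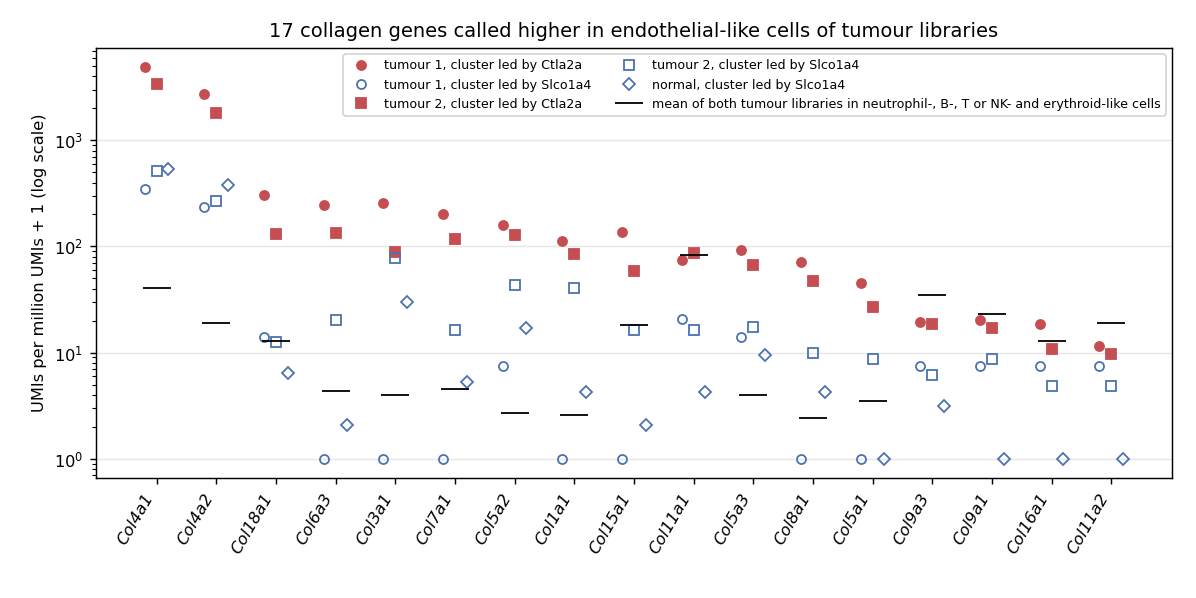
Levels (y axis, CPM plus 1, log scale) of the 17 collagen genes called higher in endothelial-like cells, by cluster and library, with bars for the mean of both tumours in 4 immune and erythroid classes; the 4 normal cells of the cluster led by Ctla2a are not drawn. For Col4a1 the cluster led by Ctla2a sits at 4851 and 3379 and the cluster led by Slco1a4 at 346 to 537 in all libraries.

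Mural-like cells held the highest collagen levels of the tumours, 167 and 177 per 10000 UMIs. The class (67, 150 and 6 cells) was led by Higd1b and Pdgfrb, pericyte genes, but also by the fibroblast gene Dcn. Its summed fibroblast markers, 5225 and 7486 CPM, were above its summed mural markers, 1995 and 3623. Col4a1 stood at 5811 and 5682, Col4a2 at 2834 and 2582 and Col3a1 at 1377 and 1607, the 3 highest members. Fibril chains came with them: Col5a2 stood at 845 and 997, Col1a1 at 480.2 and 1040.3 and Col1a2 at 486 and 906. Col6a3 stood at 882 and 970.4, Col18a1 at 985 and 831, Col8a1 at 487 and 648 and Col7a1 at 524 and 417. Both tumours thus had the same members at high levels, with Col1a1 and Col1a2 higher in tumour 2. In the normal library 1 of the 6 cells, the first of the pair above, held 10066 of the class's 10106 collagen UMIs, and without it the other 5 cells had 40 UMIs, 89.4 per 10000. The class had too few normal cells for the main test, and calls from a fit that admits 5 or more cells are not used here.

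Fibroblast-like cells (9, 31 and 41 cells) held a set of fibril and filament collagens that differed from the mural-like set. Without the second cell of the pair they had 38.9, 39.1 and 66.4 collagen UMIs per 10000. Col1a2 stood at 847, 758 and 1109, Col3a1 at 218, 201 and 906 and Col12a1, a fibril-associated chain of tendon and dermis, at 218, 444 and 735.5. Col6a1 stood at 484, 515 and 609 and Col6a2 at 532, 590.5 and 669.6, near 1 to 1 in all 3 libraries. Col6a3 was scarce beside them, with 0.25, 0.0244 and 0.144 UMIs per UMI of Col6a1, where the mural-like class had 2.02 and 2.95. Col25a1, a membrane-bound collagen, stood at 218, 276 and 532.

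With classes of at least 5 cells admitted, 6 of 17 members tested in fibroblast-like cells were lower in the tumours, against 0.456% of 4607 genes. They were Col3a1 (log2 change -6.24), Col1a1 (-5.16), Col14a1 (-5.05), Col5a1 (-4.42), Col1a2 (-3.98) and Col5a2 (-3.18). Without the second cell of the pair none of 15 was called by edgeR (0.135% of 4434 genes were called lower). Of the 15, 1 had an unadjusted p under 0.05, against 292 of the 4434 genes, and Col5a1 and Col14a1 were no longer tested. The calls thus depended on that cell, but the log2 change of Col3a1 without it was still -2.07. It was -1.09 for Col5a2, -0.95 for Col1a1 and -0.43 for Col1a2.

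**Figure D4:**
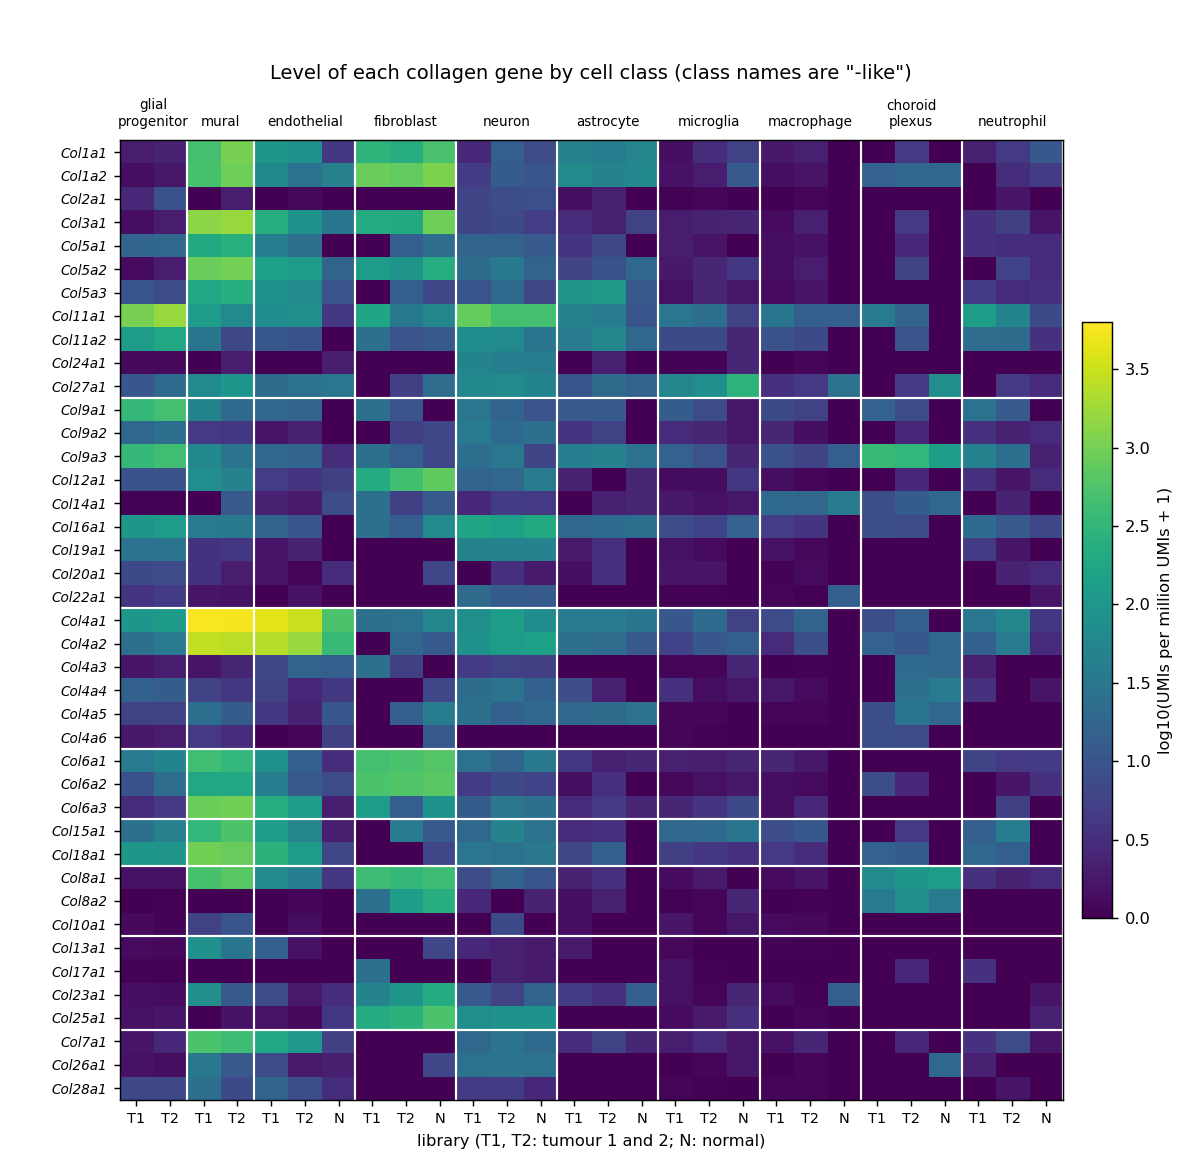
Level of each collagen gene (rows, grouped by subfamily) in 10 cell classes and each library (columns; T1 and T2 tumours, N normal), colour giving log10 of CPM plus 1; the second high-collagen cell and the normal cells of the first 2 classes are left out, and members under 20 UMIs everywhere are not drawn. Col4a1 and Col4a2 are brightest in the mural-like and endothelial-like columns, and Col9a1, Col9a3 and Col11a1 in the glial progenitor-like ones.

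Neuron-like cells (171, 308 and 607 cells) held collagens at like levels with and without tumour. Summed collagen stood at 18.7, 16.6 and 15.2 per 10000 UMIs. Col11a1 stood at 797, 484 and 468 CPM, Col16a1 at 179, 137 and 202 and Col4a2 at 85.9, 126 and 143. Col4a1 stood at 77.1, 135 and 69.8, so that its ratio to Col4a2 was 0.898, 1.07 and 0.488, below that of the vessel classes. Col25a1, which is cut from the neuronal membrane and found in amyloid plaques, stood at 77.1, 87.5 and 89.7, with 0, 0 and 1.24 in the background classes. Col24a1, a fibrillar chain known from cortex and bone, stood at 50.8, 42.0 and 39.0. Of 30 members tested 2 were higher, against 3.33% of 10976 genes: Col11a2 at 68.4, 61.8 and 29.0 (log2 change 1.23 ± 0.38, edgeR adjusted p = 0.0464) and Col9a3 at 22.8, 30.3 and 5.20 (2.43 ± 0.67). Col9a3 was not above the background level of 38.5 and 29.4 in both tumours. Neither was called with scaling by library size alone or by DESeq2. Of all genes, the first called 0 of 10976, and the second 122 higher and 5 lower of 8781. In the main edgeR test 5 of the 30 had an unadjusted p under 0.05, against 1367 of 10976 genes.

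Astrocyte-like cells (450, 122 and 195 cells) differed mainly in 1 type V chain. Col5a3 stood at 94.3 and 113 CPM in the tumours and 10.7 in the normal library, and the background classes at 2.56, 3.43 and 6.59. The tumours lay above the normal library with no overlap, and the log2 change was 3.21 ± 0.45 (edgeR adjusted p = 3.15e-08). In this fit the spread pooled over genes had 124 prior degrees of freedom, beside 1 residual degree from the tumours. With cells thinned to 1000 UMIs, 8.93% and 9.92% had a Col5a3 UMI against 1.04%, and unthinned 31.6%, 45.9% and 3.59%. Of 14 members 3 were called higher, against 3.78% of 9756 genes. The others were Col11a2 at 37.6, 55.8 and 16.8 (1.37 ± 0.45) and Col11a1 at 46.7, 35.3 and 9.16, which was below the background level in both tumours. Col1a2 stood at 67.5, 46.7 and 58.0 and Col1a1 at 47.6, 41.0 and 51.9, with the normal library between the tumours for the first and above both for the second. DESeq2 gave none of the 14 an adjusted p, and 3 had an unadjusted p under 0.05 with it.

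Microglia-like cells (2409, 2533 and 705 cells) had less of 1 fibrillar chain in the tumours. Col27a1 stood at 52.1 and 76.1 CPM in the tumours and 286 in the normal library, where it was the highest collagen of the class. Both tumours lay below the normal library, with a log2 change of -1.69 ± 0.27 (edgeR adjusted p = 0.000639). Thinned to 1000 UMIs, 7.33% and 9.83% of cells had a Col27a1 UMI against 22.2%, while unthinned shares were 23.9%, 44.7% and 35.5%. The background classes stood at 0.855, 4.58 and 5.76. Col1a2 was also lower, at 0.557, 0.937 and 10.8 (-3.34 ± 0.78), but the background level was 0, 1.14 and 7.0. These 2 of 27 members were lower, against 7.6% of 14479 genes.

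The microglia-like class, too, held different clusters in tumour and normal brainstem. A cluster led by Gpr34 held 7 and 36 cells in the tumours and 630 of the 705 normal cells. A cluster led by Lag3 held 719, 1548 and 31 cells and a cluster led by Bmf 1422, 684 and 40. Col27a1 stood at 64.6 (2 UMIs), 252 (95% interval 167 to 364) and 298 (267 to 331) in the cluster led by Gpr34, so that the intervals of tumour 2 and the normal library overlapped. In the cluster led by Bmf it stood at 104, 211 and 267, and in that led by Lag3 at 30.6, 61.1 and 177 (12 UMIs). These 3 clusters had at least 5 cells in every library and were each tested alone, a choice made after seeing the data. In each of them both tumours lay below the normal library, but no difference passed the test: the log2 changes of Col27a1 were -0.71 (cluster led by Gpr34), -0.52 (Bmf) and -1.31 (Lag3), with edgeR adjusted p = 0.999, 0.743 and 0.541. By edgeR 0 members were called in any of them, of 1, 17 and 15 tested. An unadjusted p under 0.05 was had by 0, 1 and 1 members, against 132, 1155 and 1504 genes. Called lower were 0.18% of 3326 genes, 0% of 11818 and 0.0651% of 12286. All 14 Col1a2 UMIs of the normal class lay in the cluster led by Gpr34, where the 7 and 36 tumour cells had none.

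A further 5 members were called higher in microglia-like cells, Col9a1, Col9a3, Col11a1, Col11a2 and Col4a1, against 13.7% of genes. None of the 5 was above the background level in both tumours. Their tumour levels ran from 6.11 to 30.3, led by Col11a1 at 30.3 and 22.3 against 4.65. With library size alone as scaling, 3 members were higher and 2 lower, against 1033 and 2618 of 14479 genes. Col15a1 stood at 18.4, 19.0 and 29.4, above the background level in tumour 1 and the normal library.

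In macrophage-like cells (635, 1412 and 28 cells) Col14a1, a fibril-associated chain, stood at 19.2 and 16.7 CPM in the tumours, where the background classes had 0 and 0.763. This class held 88.5% and 86.2% of the Col14a1 UMIs of the tumours. In the normal library it had 3 UMIs (37.6). Col11a1 stood at 28.7, 12.6 and 12.5 and Col27a1 at 2.40, 3.35 and 25.1, the last from 2 UMIs. None of 18 members was called by edgeR, against 0.0469% of 12790 genes called higher and 0.149% lower. Of the 18, 0 had an unadjusted p under 0.05, against 1878 of 12790 genes. DESeq2 called 0 of 21, against 151 genes higher and 268 lower of 13584. In the 28 normal cells 14 of the 18 had no UMI.

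Choroid plexus-like cells (25, 73 and 30 cells) held type IX and type VIII chains. Col9a3 stood at 378, 331 and 128 CPM while Col9a1 had 2, 4 and 0 UMIs, so Col9a1 to Col9a3 was 0.0385 (0.00454 to 0.146) and 0.0203 (0.00548 to 0.0528). Col8a1 stood at 65.5, 101 and 128 and Col8a2 at 36.4, 74.0 and 36.7. None of 3 members tested was called by edgeR or DESeq2, against 1.04% of 3163 genes called higher and 1.14% lower by edgeR. With edgeR 1 of the 3 had an unadjusted p under 0.05, against 419 of the 3163 genes. In oligodendrocyte-like cells (10, 10 and 85 cells) no member passed the low-count filter, and in the normal library Col16a1 stood at 266 and Col11a2 at 237.

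Calls were also made in blood cell classes, 3 of which serve as background. Neutrophil-like cells had 7 of 10 members called higher, against 7.51% of 9408 genes: Col11a1 at 134, 50.9 and 6.22, Col9a1, Col9a3, Col4a1, Col4a2, Col15a1 and Col18a1. B-like cells had 4 of 4, against 4.4% of 6406 genes: Col9a1, Col9a3, Col11a1 and Col4a1. Granulocyte precursor-like cells had 1 of 3, against 0.415% of 8431 genes: Col11a1 at 132, 10.8 and 2.63. In T or NK-like cells neither of the 2 members tested, Col11a1 and Col4a1, was called by edgeR, against 2.84% of 5745 genes called higher and 2.14% lower. Both had an unadjusted p under 0.05, against 933 of the 5745 genes. DESeq2 gave the 2 members no adjusted p. The called members are among those with the most UMIs in the tumour libraries, and the part of free RNA in these calls was not tested. Col11a1 in granulocyte precursor-like cells had a log2 change of 4.38, which was 1.98 without tumour 1 and 5.60 without tumour 2, and in B-like cells 4.27, which was 2.28 without tumour 2.

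Summed over all cells of a library, 10 members were higher and 8 lower in the tumours, against 13.1% and 8.36% of 20449 genes. Of the 44, 28 had an unadjusted p under 0.05, against 7737 of the 20449 genes. The median log2 change was 0.20 for members and 0.14 for all genes. In these sums fewer cells of a type and less RNA per cell cannot be told apart. Scaling by library size alone moved the median of all genes to -0.42. It gave 8 higher and 11 lower members, against 1686 and 3798 of 20449 genes. DESeq2 gave 16 and 9, against 3392 and 2107 of 18905 genes.

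Higher were the chains that glial progenitor-like and vessel cells held. Col9a1 had 249 and 213 CPM in the tumours against 1.99 in normal brainstem (log2 change 7.41 ± 0.44, edgeR adjusted p = 0.00701). Col9a3 stood at 244, 199.6 and 5.69 (5.83 ± 0.40), Col11a1 at 776, 748 and 114 (3.30 ± 0.38) and Col11a2 at 92.5, 87.9 and 15.5 (3.09 ± 0.31). Both tumours stood well apart from the normal library for all 4. Col18a1 stood at 87.6, 61.4 and 8.04 (3.76 ± 0.38), Col4a1 at 184, 303 and 64.8 (2.48 ± 0.48) and Col15a1 at 25.6, 37.0 and 11.3 (2.04 ± 0.43). Smaller levels were those of Col28a1, at 4.34, 3.14 and 0.542 (3.33 ± 0.73), Col20a1, at 4.47, 3.27 and 0.903 (2.64 ± 0.68), and Col9a2, at 14.2, 11.4 and 5.96 (1.65 ± 0.41). By subfamily, 4 of 9 fibril-associated, 2 of 11 fibrillar, 1 of 6 type IV and 2 of 2 multiplexin genes were higher.

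Without the glial progenitor-like cells and the low-UMI clusters nearest to them, Col11a1 (log2 change -0.84), Col9a2 (-1.12), Col11a2 (-0.11) and Col20a1 (-0.34) turned and were not called. Then 10 members were higher and 9 lower of 43, against 15.5% and 12.3% of 18516 genes.

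Lower were fibril chains of type I and III and a group of neuronal and membrane chains. Col1a1 stood at 8.10, 20.2 and 626 (log2 change -4.88 ± 0.61), Col1a2 at 7.68, 15.7 and 689 (-5.30 ± 0.53) and Col3a1 at 17.9, 27.4 and 303 (-3.17 ± 0.37). Without the pair of high-collagen cells the normal library had 19.3, 34.6 and 20.1, and the log2 changes were 0.13, -0.98 and 0.74. None of the 3 was then called by edgeR. With the whole fibroblast-like class left out instead, Col3a1 was higher in the tumours (log2 change 2.66). That fit kept the mural-like class, which in the tumours had high Col3a1 and more summed fibroblast than mural markers. The turn thus depends on which class was left out. Without tumour 2 the log2 change with all cells was -5.78 for Col1a1 and -6.00 for Col1a2.

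With those cells left out, 12 members were higher and 5 lower, against 13.1% and 8.34% of 20443 genes, and 15 of the 18 called members remained. Col5a1 (2.12) and Col6a1 (1.27) were then also higher. The 5 that were lower with and without the pair were Col25a1, Col24a1, Col6a5, Col23a1 and Col26a1. Col25a1 stood at 0.832, 1.49 and 28.9 (log2 change -4.06 ± 0.54), Col24a1 at 0.391, 0.418 and 9.31 (-3.96 ± 0.57) and Col23a1, a membrane-bound collagen, at 1.37, 0.760 and 8.76 (-2.50 ± 0.59). Col26a1 stood at 0.939, 0.582 and 6.14 (-2.47 ± 0.61). Col6a5 had 9, 11 and 13 UMIs (-3.49 ± 0.87). Neuron-like cells held 64.7% of the normal library's Col25a1 UMIs, 87.4% of Col24a1, 89.7% of Col26a1 and 100% of Col6a5. They made up 1.62% and 3.27% of the tumour libraries' cells and 19.7% of the normal library's. Within neuron-like cells Col25a1 and Col24a1 had like levels in all 3 libraries, as given above.

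**Figure D5:**
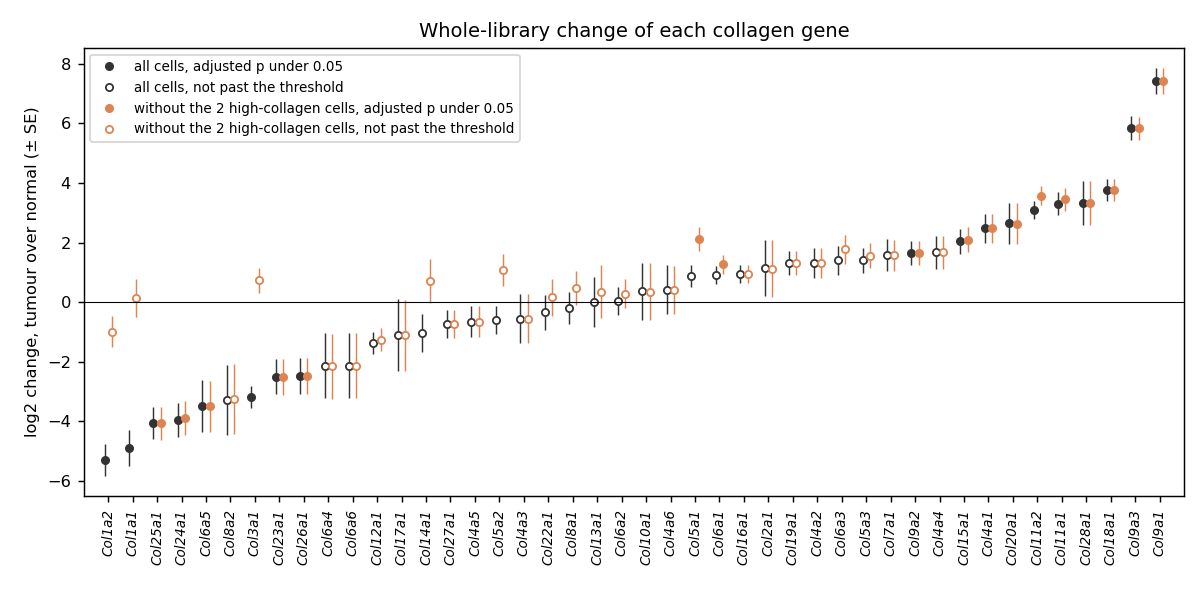
Log2 change of each collagen gene between the 2 tumour libraries and the normal library, summed over all cells (y axis, with standard error), with and without the pair of high-collagen cells; filled points passed the adjusted threshold. Col9a1 (7.41) and Col9a3 (5.83) stand highest. Col1a1, Col1a2 and Col3a1 move up without the pair, with Col1a1 near 0, Col3a1 above it and Col1a2 still below it.

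Genes that process, cross-link or bind collagens were counted from 5 lists of 54 genes. Over whole libraries, 5 of 15 genes of chain hydroxylation and glycosylation were higher and 1 lower (median log2 change 1.06). They were led by P3h4 (3.52) and Ppib (2.69), partners of the prolyl 3-hydroxylases, with P4ha1 (1.98) and Plod1 (1.89), while P4ha3 (-3.24) was lower. Of 15 genes of folding, export and propeptide removal, 5 were higher, led by Adamts14 (4.13) and Fkbp10 (2.63), and Adamts2 (-2.76) was lower (median 1.02). Of 10 collagen receptors, Itgb1 (2.34), Ddr2 (1.91) and Ddr1 (1.45) were higher and Gp6 (-6.64), the platelet receptor, and Itga10 (-3.61) lower (median 0.39). Of 8 small proteoglycans 0 were higher, and Ogn (-4.13) and Dcn (-2.12) were lower (median -1.50). The list values include the pair of high-collagen cells of the normal library, which had 34 and 559 UMIs of Dcn. The lists were not tested without that pair. Of 6 cross-linking genes, Loxl3 (2.55) was higher (median 0.88).

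In endothelial-like cells the same lists had more members higher than lower, except for the proteoglycans. Of 14 hydroxylation genes 5 were higher and 1 lower, led by P3h4 (log2 change 2.67) and Ppib (2.66), and of 11 folding and export genes 5 were higher and 0 lower, led by Fkbp10 (5.31) and Bmp1 (3.99), the procollagen C-proteinase. Serpinh1 (1.87), the chaperone specific to collagen, was among the latter. Loxl2 (6.68) and Loxl3 (3.25), lysyl oxidases that cross-link collagen, were higher and Tgm2 (-1.64) lower, of 3 cross-linking genes. Receptors had 3 of 8 higher and 0 lower, namely Itga2 (7.57), Lair1 (3.21) and Itgb1 (1.60), and proteoglycans 1 and 1 of 6, namely Bgn (4.01) and Ogn (-3.75). The shares over all genes are those given for the same comparisons above. Unlike the collagens, the list genes were not set against the background classes or tested in the cluster led by Slco1a4 alone.

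The members not named so far were sparse. Col6a4 and Col6a6 stayed under 20 UMIs in every library, as did Col6a5. Col10a1, the collagen of hypertrophic cartilage, had 52, 39 and 4 UMIs and Col17a1, of hemidesmosomes, 24, 9 and 4. Col4a6 had 91, 74 and 7 UMIs and Col13a1 176, 76 and 14, of which the mural-like class held 67.6% and 75.0% in the tumours. Col22a1 had 308, 248 and 40 UMIs and Col4a5 564, 392 and 85. None of these was called over whole libraries except Col6a5.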

How the data were processed

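Single-cell 3′ RNA libraries of 2 tumour-bearing brainstems and 1 normal brainstem were analysed. The deposited values are raw UMI counts per gene and cell, which the authors made with Cell Ranger (version 6.1.2, per the file headers). The submitters' processing notes name mm10 as genome build. Per the labels' protocols, myelin was removed with beads, which can deplete oligodendrocytes. Cells with at least 500 UMIs, 300 genes and at most 15% mitochondrial UMIs were kept, and predicted doublets (1.47% to 3.43% per library) were removed. Total UMIs before filtering were 151906460, 157114723 and 15035292, so low members are measured less precisely in the normal library.

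Cells were clustered with scanpy 1.11.5 (2000 variable genes without collagens, 30 components, 15 neighbours, Leiden resolution 1.0) and named from 20 marker lists. A class needed at least 3 detected markers. UMIs were summed per class and library. Tumour and normal were compared with edgeR 4.0.16 (quasi-likelihood, TMM scaling, low-count filter) over all genes with Benjamini-Hochberg adjustment, in classes of at least 10 cells per library. The fits have 1 residual degree of freedom, so the spread comes from the tumours and is taken to hold for the normal library. Each gene's spread was drawn toward a spread pooled over genes. The prior degrees of freedom were 4.42 over whole libraries, 5.13 in endothelial-, 13.7 in microglia-, 69.3 in neuron- and 124 in astrocyte-like cells. In B-, T or NK-, choroid plexus- and oligodendrocyte-like cells they were infinite, so the pooled spread alone was used. Alternatives were DESeq2 1.42.0, other scalings, filters, doublets kept, a resolution of 2.0 and leaving out a tumour. Named were all members past the threshold and the 3 highest of each class, besides members that chain pairs or clusters turn on, which were chosen after their values were seen. The members and all lists were chosen with earlier results of these data known. Scripts were tested on simulated counts with 1 spread for all genes. Over whole libraries 0 of 99 genes changed 2-fold and 3 of 95 changed 4-fold were recovered. In endothelial-like cells 13 of 97 and 72 of 94 were recovered, with 5 false calls of 90. A member that was not called may thus still differ.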

Additional observations from a re-analysis of the deposited data

Results flagged for a closer look

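For 2 members both tumours lay on one side of the normal library in one cell class and on the other side in neuron-like cells, where neither difference passed the test. In endothelial-like cells Col4a2 was higher in both tumours than in the normal library (log2 change 2.73), whereas in neuron-like cells both tumours, at 85.9 and 126 CPM, lay below the normal library at 143 (-0.33, edgeR adjusted p = 0.784). The log2 ratio of the mean tumour level to the normal level in neuron-like cells was -0.433. In microglia-like cells Col27a1 was lower in both tumours (log2 change -1.69), whereas in neuron-like cells both, at 57.8 and 61.8, lay above the normal library at 50.3 (0.33, edgeR adjusted p = 0.809), with a log2 ratio of the mean tumour level to the normal level of 0.251. In the endothelial-like cluster led by Slco1a4 alone, however, both tumours lay below the normal library for Col4a2. Col27a1 was not called in any microglia-like cluster tested alone. The difference between classes was not tested for either gene.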

How the results depend on the processing

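Of 41 members called within classes, counted per class, DESeq2 called 20. In neutrophil-like cells 7 calls became 2 with DESeq2, 1 with doublets kept and 0 at resolution 2.0. Only 3, 2 and 3 members had an adjusted p there. Called higher and lower over all genes were 290 and 309 of 5427, 114 and 84 of 4113, and 1 and 2 of 3689. In microglia-like cells 7 became 4 with DESeq2, which called 1243 genes higher and 439 lower of 13675. In B-like cells 4 became 0 with DESeq2 and 1 with the stricter cell filter (1000 UMIs, 500 genes, 10% mitochondrial) or at resolution 2.0. Only 1, 2 and 2 members had an adjusted p in these 3 settings. Over all genes they called higher and lower 25 and 43 of 2751, 333 and 430 of 6308, and 235 and 283 of 6138. In astrocyte-like cells 3 became 0 with DESeq2, which gave no member an adjusted p there, and 6 with doublets kept. DESeq2 called 63 genes higher and 30 lower of 897, and the fit with doublets kept 832 and 484 of 11283. In neuron-like cells 2 became 1 with DESeq2's size factors, no low-count filter, the stricter filter or resolution 2.0, and 0 with library size alone or DESeq2. The settings with 1 call had 273, 355, 331 and 231 genes called higher, of 10976, 20060, 10374 and 9775. Library size alone called 0 of 10976 genes in either direction, and DESeq2 122 higher and 5 lower of 8781. The single call in granulocyte precursor-like cells became 0 with library size alone, DESeq2, doublets kept or the stricter filter. These settings called 19, 10, 0 and 2 genes higher, of 8431, 5606, 8815 and 8424. In T or NK-like cells 0 became 3 with doublets kept and 2 with the stricter filter, where 286 of 6971 and 240 of 6538 genes were called higher. The following alternatives were chosen after seeing the data. In the endothelial-like cluster led by Slco1a4 alone, 1 of the 17 members stayed called and 7 did not. Another 2 turned, Col4a1 to -0.22 and Col4a2 to -0.51, and the rest were not tested there. Of the 7 in microglia-like cells, the clusters led by Lag3, Bmf and Gpr34 alone had 6, 6 and 1 tested and 0 called. In fibroblast-like cells without the high-collagen cell 6 calls became 0, with Col5a1 and Col14a1 no longer tested. Over whole libraries Col3a1 turned to 2.66 without fibroblast-like cells and 0.74 without the pair of high-collagen cells, where Col1a1 turned to 0.13. Without glial progenitor-like cells Col11a1 turned to -0.84, Col9a2 to -1.12, Col20a1 to -0.34 and Col11a2 to -0.11.

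In the normal library the mural-like share of collagen UMIs was 0.159% and its level 89.4 per 10000 with doublets kept, when the first high-collagen cell fell outside the class. With the stricter filter, under which that cell was removed as a predicted doublet and which merged mural-like with fibroblast-like cells, the fibroblast-like share was 61.1% (level 843), the neuron-like 24.99% and the endothelial-like 7.06%. At resolution 2.0 the neuron-like share was 12.8%. Without either tumour, where no test remains, all called members kept their direction: 18 over whole libraries, and 17 (endothelial), 7 (microglia), 7 (neutrophil), 4 (B), 3 (astrocyte), 2 (neuron) and 1 (granulocyte precursor). No paired analysis was possible because the normal group is 1 library. In the normal library a median of 2395 UMIs per cell limits low members.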
